A study of Mus musculus with 6 samples.

Results

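The genes followed here were grouped as genes of the mesothelium, the thin epithelium lining the pleura, and were read in the RNA-seq libraries of cultured lung mesenchymal stromal cells (LMSCs). Whether each of them is particular to mesothelial cells was not tested. The 9 genes, Upk1b, Upk3b, Msln, Wt1, Lrrn4, Ezr, Gpm6a, Muc16 and Bst1, were chosen by name from the 34745 genes of the deposited expression table, and all 9 were listed there. The LMSCs came from MMTV-PyMT mice, in which the mouse mammary tumor virus promoter drives the polyoma middle T antigen in mammary epithelium and the resulting tumors spread to the lung. The libraries were 2 of A-LMSCs (adenoma stage, mice of 6 to 7 weeks by the sample labels), 2 of PM-LMSCs (pre-metastatic stage, 9 to 10 weeks) and 2 of M-LMSCs (metastatic stage, 13 to 14 weeks). The study's methods put the mice of the first 2 stages slightly older than the labels do. All 6 cultures were at passage 3, had been grown from the adherent, CD45-depleted cells of digested lung, and carried the same transgene, so that the A-LMSCs are not a tumor-free control. PM-LMSCs and M-LMSCs were both compared with the same A-LMSC libraries.

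Mesothelial cells carry microvilli and a coat of glycoproteins on the surface that faces the pleural cavity, and keep simple keratins together with mesenchymal proteins such as vimentin. They line the lung that was digested here, and in culture they can take on a fibroblast shape. Whether more cells of this type or more RNA per cell lies behind a higher level cannot be told apart in bulk RNA. Several stromal genes were high: Col1a1 was between 761 and 1472 FPKM and Pdgfrb between 61.1 and 89.1 FPKM. Vim, which mesothelial cells also carry, was between 296 and 365 FPKM. Others on the stromal list were lower, with Pdgfra between 6.31 and 9.67, Lum between 0.358 and 7.90 and Ly6a between 1.99 and 5.74 FPKM. FPKM, the deposited unit, is a fragment count divided by gene length and by the size of the library. Epcam, one of the epithelial markers kept apart from the mesothelial genes, was listed at 0 in the A- and PM-LMSC libraries. In M-LMSCs Epcam reached at most 0.473 FPKM. Ptprc, which encodes CD45, stayed at or below 0.0987 FPKM in all 6 libraries. Other haematopoietic transcripts were present: Lyz2, the lysozyme of myeloid cells, was between 60.6 and 362 FPKM, Cd68 between 5.48 and 12.2 FPKM, Tyrobp between 3.12 and 13.1 FPKM and Csf1r between 2.72 and 4.71 FPKM, each highest in an M-LMSC library. From the spacing of low values, the depth of a library was estimated at 14.8 to 20.9 M (mega) fragments. Across genes, which are not independent replicates, libraries correlated at 0.966 to 0.992 on the log2 scale, and the 2 M-LMSC libraries were less alike (0.977) than the 2 A-LMSC libraries (0.992).

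Upk1b, a tetraspanin of the uroplakin family that is found in urothelium and mesothelium, was the most abundant of the 9 genes. Upk1b measured 63.8 and 95.02 FPKM at the adenoma stage, 167 and 221 FPKM at the pre-metastatic stage and 106 and 257 FPKM at the metastatic stage. Each library of the later stages exceeded the A-LMSC pair, but M-LMSC replicate 1 lay close above the higher of them. The stage means were 79.4 ± 22.1, 194 ± 38.3 and 181 ± 107 FPKM (SD, n = 2), so the spread between the M-LMSC libraries was wider than the gap between the PM and M means. Upk1b lies at chr16:38773184-38800328 on the minus strand of GRCm38.

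Upk3b, a uroplakin with a single membrane span that is used as a marker of mesothelium, lies at chr5:136038496-136046487 on the plus strand. Upk3b measured 15.6 and 27.4 FPKM at the adenoma stage, 37.9 and 67.6 FPKM at the pre-metastatic stage and 34.2 and 96.7 FPKM at the metastatic stage. No later-stage library overlapped the A-LMSC libraries, and the highest and the lowest later-stage values were both in M-LMSCs. The mean was 2.45-fold higher in PM-LMSCs and 3.04-fold higher in M-LMSCs, each against A-LMSCs.

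Msln encodes mesothelin, a glycoprotein anchored to the surface of mesothelial cells by a lipid (GPI) anchor, and lies at chr17:25748613-25754378 on the minus strand. Msln measured 8.87 and 12.7 FPKM at the adenoma stage, 33.8 and 47.7 FPKM at the pre-metastatic stage and 12.6 and 48.2 FPKM at the metastatic stage. Msln was the gene in which the M-LMSC libraries were furthest apart: replicate 2 was at the PM-LMSC level, whereas replicate 1 lay within the A-LMSC range. Its replicate 2 was 3.81 times its replicate 1 in M-LMSCs.

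Muc16 encodes the mucin that carries the CA125 antigen and binds mesothelin. Muc16 was listed at 0 and 0.110 FPKM at the adenoma stage, 0.262 and 0.243 FPKM at the pre-metastatic stage and 0.175 and 0.349 FPKM at the metastatic stage. Although all 4 later-stage values were above both A-LMSC values, the levels were too low for the filter used in the tests (an average of 1 FPKM or more over the libraries), and no fold change is given. In a fit without that filter, over 21698 genes, its adjusted p for both later stages together was 0.441 by limma. The file's identifier for Muc16 was not found in the GENCODE M21 annotation, where the gene named Muc16 is at chr9:18495455-18674530 on the minus strand, so the gene model behind the values is not known.

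Bst1 (CD157), a GPI-anchored ectoenzyme of the ADP-ribosyl cyclase family, lies at chr5:43818885-43843986 on the plus strand. Bst1 measured 1.10 and 1.62 FPKM at the adenoma stage, 6.40 and 6.47 FPKM at the pre-metastatic stage and 3.03 and 6.20 FPKM at the metastatic stage. Bst1 had the largest ratio of stage means among the tested genes of the set in PM-LMSCs (4.73-fold), with PM-LMSC libraries that differed by a factor of only 1.01. It was the only one of the 9 whose highest value was not in M-LMSC replicate 2. Its exons share 98 bases with Fbxl5 on the opposite strand, which was between 2.31 and 2.84 FPKM in the 6 libraries, and no source used here says whether counting used strand.

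Lrrn4, a leucine-rich repeat membrane protein first described in neurons and used as a mesothelial marker, lies at chr2:132868305-132880891 on the minus strand. Lrrn4 measured 15.5 and 22.3 FPKM at the adenoma stage, 41.5 and 57.1 FPKM at the pre-metastatic stage and 33.1 and 73.3 FPKM at the metastatic stage. Gpm6a, a membrane protein of the proteolipid family, lies at chr8:54954843-55060871 on the plus strand. Gpm6a measured 1.06 and 1.68 FPKM at the adenoma stage, 4.24 and 6.08 FPKM at the pre-metastatic stage and 2.65 and 8.51 FPKM at the metastatic stage. In both genes each later-stage library lay above both A-LMSC libraries, M-LMSC replicate 1 was the lowest of the later libraries and M-LMSC replicate 2 the highest. The mean of Gpm6a was 4.07-fold higher at the metastatic than at the adenoma stage. The size of this rise, though not its direction, depended on the M-LMSC library used. The difference in log2(FPKM + 1) was 1.32 with both M-LMSC libraries, 0.63 without replicate 2 and 2.02 without replicate 1. Of the tested genes Gpm6a also rested on the fewest fragments, an estimated 71 in A-LMSC replicate 1.

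Ezr encodes ezrin, which links the plasma membrane to actin filaments in microvilli, and lies at chr17:6738041-6782784 on the minus strand. Ezr measured 27.6 and 46.8 FPKM at the adenoma stage, 81.9 and 116 FPKM at the pre-metastatic stage and 53.3 and 131 FPKM at the metastatic stage. The later libraries did not overlap the A-LMSC libraries, and M-LMSC replicate 1 was the nearest to them. Wt1, a zinc-finger transcription factor of the mesothelium and of the mesenchyme derived from it, lies at chr2:105126529-105173616 on the plus strand. Wt1 measured 1.72 and 1.79 FPKM at the adenoma stage, 3.40 and 3.85 FPKM at the pre-metastatic stage and 3.76 and 6.31 FPKM at the metastatic stage. Wt1 differed from the other 8 genes in that M-LMSC replicate 1 was not below both PM-LMSC libraries, and its A-LMSC libraries were the closest pair of the tested genes at that stage. No transcript of another annotated gene shared a stretch of at least 200 bases at 95% identity or more with any of the 9 genes.

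**Figure D1:**
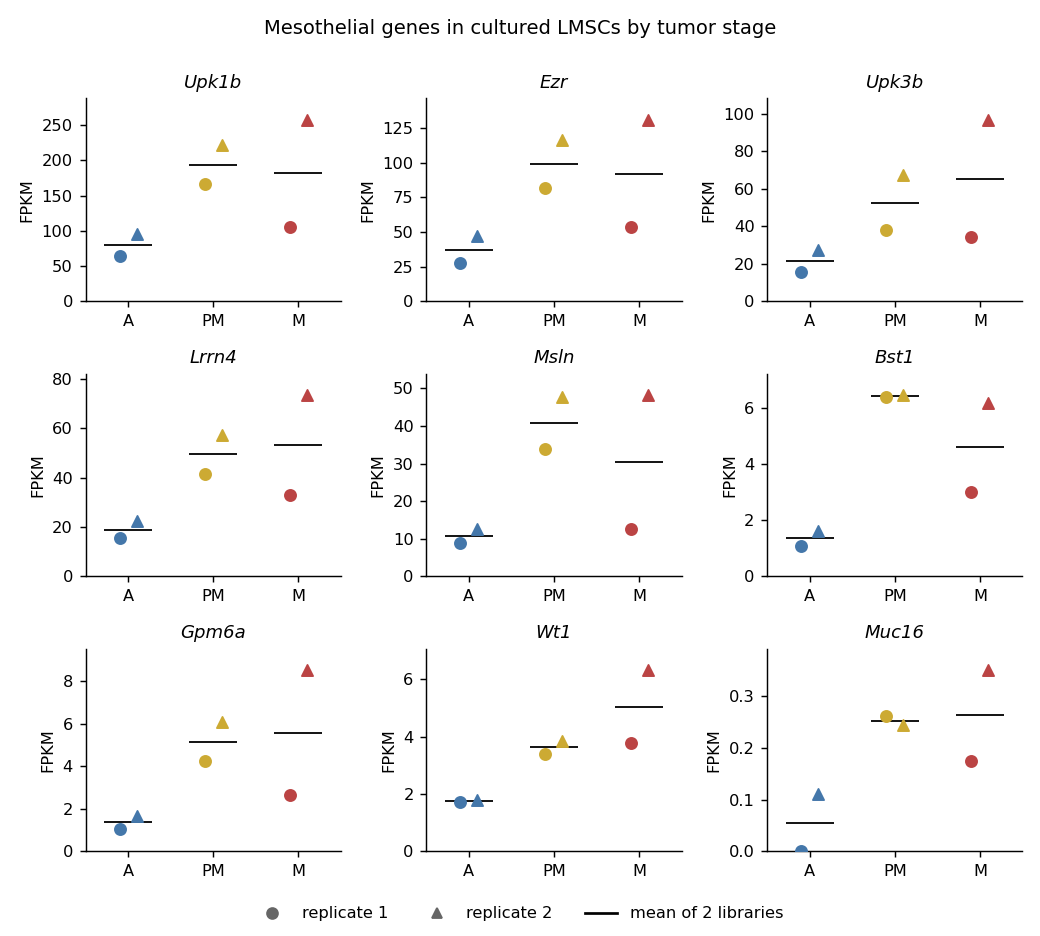
FPKM of the 9 genes (linear axes from 0) in A-, PM- and M-LMSCs, with a circle for replicate 1, a triangle for replicate 2 and a bar for the mean of the 2 libraries. Replicate 1 of M-LMSCs sits below both PM-LMSC libraries in 8 of the 9 genes, and replicate 2 is the highest library in 8 of the 9.

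Promoter windows from RefSeq (GRCm38.p6) were at hand for 5 of the 9 genes, Upk3b, Lrrn4, Gpm6a, Ezr and Muc16, with 2 start sites for Gpm6a. Because these genes had like patterns over the libraries, the 250 bases before the start site are shown for the 4 that were tested, 5′ to 3′ on the strand of the gene. Capitals mark every match, on either strand, to one of 5 motifs: GGAATG (the core of TEAD factor sites), TGANTCA (AP-1), GGGCGG (the GC box of Sp factors), TATAAA (the TATA box) and GCGTGGGNG (the site shared by WT1 and the EGR factors).
Upk3b, chr5:136038246-136038495, plus strand: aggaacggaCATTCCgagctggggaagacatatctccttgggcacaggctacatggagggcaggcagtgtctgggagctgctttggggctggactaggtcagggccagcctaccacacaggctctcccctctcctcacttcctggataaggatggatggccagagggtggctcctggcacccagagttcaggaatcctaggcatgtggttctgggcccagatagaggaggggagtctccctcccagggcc
Lrrn4, chr2:132880863-132881112, minus strand: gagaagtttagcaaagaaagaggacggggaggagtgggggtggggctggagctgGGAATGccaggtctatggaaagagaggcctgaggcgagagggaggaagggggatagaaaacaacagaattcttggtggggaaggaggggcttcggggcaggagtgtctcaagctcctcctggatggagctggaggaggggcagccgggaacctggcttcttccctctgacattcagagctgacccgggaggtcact
Gpm6a upstream start, chr8:54779184-54779433, plus strand: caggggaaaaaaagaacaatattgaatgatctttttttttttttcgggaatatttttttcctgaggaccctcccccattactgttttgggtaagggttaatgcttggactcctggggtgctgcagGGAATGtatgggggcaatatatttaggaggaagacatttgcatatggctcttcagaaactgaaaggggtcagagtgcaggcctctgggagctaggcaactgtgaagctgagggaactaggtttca
Gpm6a downstream start, chr8:54954478-54954727, plus strand: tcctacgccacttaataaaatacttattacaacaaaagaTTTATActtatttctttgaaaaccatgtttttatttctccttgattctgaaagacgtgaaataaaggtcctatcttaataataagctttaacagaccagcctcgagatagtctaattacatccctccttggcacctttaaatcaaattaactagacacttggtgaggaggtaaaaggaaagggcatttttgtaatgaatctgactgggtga
Ezr, chr17:6782781-6783030, minus strand: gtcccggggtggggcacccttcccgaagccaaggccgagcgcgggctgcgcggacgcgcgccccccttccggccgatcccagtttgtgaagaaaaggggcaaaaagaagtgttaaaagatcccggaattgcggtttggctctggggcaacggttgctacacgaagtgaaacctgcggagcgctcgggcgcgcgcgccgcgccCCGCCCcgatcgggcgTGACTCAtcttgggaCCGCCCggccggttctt
The windows of Upk3b, Lrrn4 and the upstream start of Gpm6a each held 1 match to GGAATG, at -241 to -236, -196 to -191 and -125 to -120 from the start site. The window of the downstream start of Gpm6a, which is the one next to the gene coordinates given above, held no GGAATG and 1 match to TATAAA at -211 to -206. The Ezr window held 1 TGANTCA match and 2 GGGCGG matches, all within its last 48 bases. GGAATG was in 3 of the 6 windows of these genes and in 12.6% of 32851 RefSeq promoter windows of the same length. The corresponding shares for all promoters were 6.75% for TGANTCA, 32.7% for GGGCGG, 12.4% for TATAAA and 1.65% for GCGTGGGNG, which was in 0 of the 6 windows. The Lrrn4 and Ezr windows overlap 29 and 4 bases of exons annotated in GENCODE. These matches describe the letters of the windows and were not linked to binding of any factor.

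To ask whether the genes differed between stages, limma was run on log2(FPKM + 1) with a separate mean for each stage over the 10279 genes that averaged 1 FPKM or more, and p-values were adjusted over all of them by the Benjamini-Hochberg method. Of the 9 genes, 8 passed the filter and Muc16 did not. Each of the 8 was higher on average in PM-LMSCs, in M-LMSCs and in both later stages together than in A-LMSCs, with median log2 differences of 1.36, 1.20 and 1.35, against medians of 0.01, 0.03 and 0.02 over all genes tested. On this scale the change of the low genes is understated. limma called 0 of the 8 in each of these comparisons at an adjusted p under 0.05, where 0.0292%, 0.0389% and 0.0876% of all genes were called higher. At an unadjusted p under 0.05, 8 of the 8 were higher in PM-LMSCs, 7 in M-LMSCs and 8 in both together, where 3.92%, 7.68% and 6.43% of all genes were. With the replicate number added to the fit as a block, 3 of the 8 were called higher in PM-LMSCs (Lrrn4, Ezr and Bst1), 7 in M-LMSCs (all but Msln) and 8 in both together, against 0.263%, 2.28% and 1.33% of all genes. With either M-LMSC library left out, 1 library remained at that stage, so differences are given here instead of calls. With 1 library left out in turn and no block, the log2 differences in M-LMSCs ran from 0.23 (Msln) to 2.17 (Upk3b). Those of both later stages together ran from 0.77 (Wt1) to 1.95 (Msln). The genes were chosen with earlier results of these libraries known, and the study had displayed Upk1b, Ezr and Bst1 as genes with higher levels in these libraries. The counts of genes called are thus not independent evidence of a rise.

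Among the surface proteins, Msln differed in PM-LMSCs by 1.82 on the log2 scale (standard error 0.55), with an adjusted p of 0.552 from limma and 0.0773 with the block. In M-LMSCs it differed by 1.15 (standard error 0.55), with an adjusted p of 0.388 from limma and 0.0940 with the block. Without M-LMSC replicate 1 that difference was 2.08, and without M-LMSC replicate 2 it was 0.23, so the M-LMSC value of Msln depended on the library used, with an adjusted p of 0.0233 and 0.593 by limma. Bst1 had the smallest p of the 8 in PM-LMSCs, with a log2 difference of 1.66 (standard error 0.27, adjusted p = 0.248 from limma, 0.0369 with the block). For both later stages together it differed by 1.43 (standard error 0.23, adjusted p = 0.131 by limma, 0.0177 with the block, and 0.00788 to 0.623 over all settings tried). Upk1b differed by 1.18 (standard error 0.36, adjusted p = 0.295 from limma, 0.0309 with the block, 0.0267 to 0.999 over the settings) and Upk3b by 1.34 (standard error 0.45, adjusted p = 0.350 from limma, 0.0177 with the block, 0.0177 to 0.999 over the settings).

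With PM- and M-LMSCs combined, Lrrn4 differed by 1.35 (standard error 0.32, adjusted p = 0.225 by limma, 0.0164 with the block, 0.0164 to 0.918 over the settings), and Gpm6a likewise by 1.35 (standard error 0.37, adjusted p = 0.262 by limma, 0.0342 with the block, 0.0140 to 0.999 over the settings). Ezr differed by 1.30 (standard error 0.38, adjusted p = 0.282 from limma, 0.0183 with the block, 0.0183 to 0.973 over the settings). Wt1 differed by 0.92 (standard error 0.18, adjusted p = 0.181 from limma, 0.0309 with the block, 0.0140 to 0.973 over the settings). When GC content and gene length were also corrected in the block fit, a setting added after the data were seen, the calls fell to 0 of the 8 in PM-LMSCs, 4 in M-LMSCs and 3 in both together (Upk3b, Lrrn4 and Ezr). The calls among all genes fell as well, to 6, 305 and 68 in either direction, from 30, 403 and 211 with the block alone. With that correction the log2 differences of both together remained between 0.97 and 1.57.

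**Figure D2:**
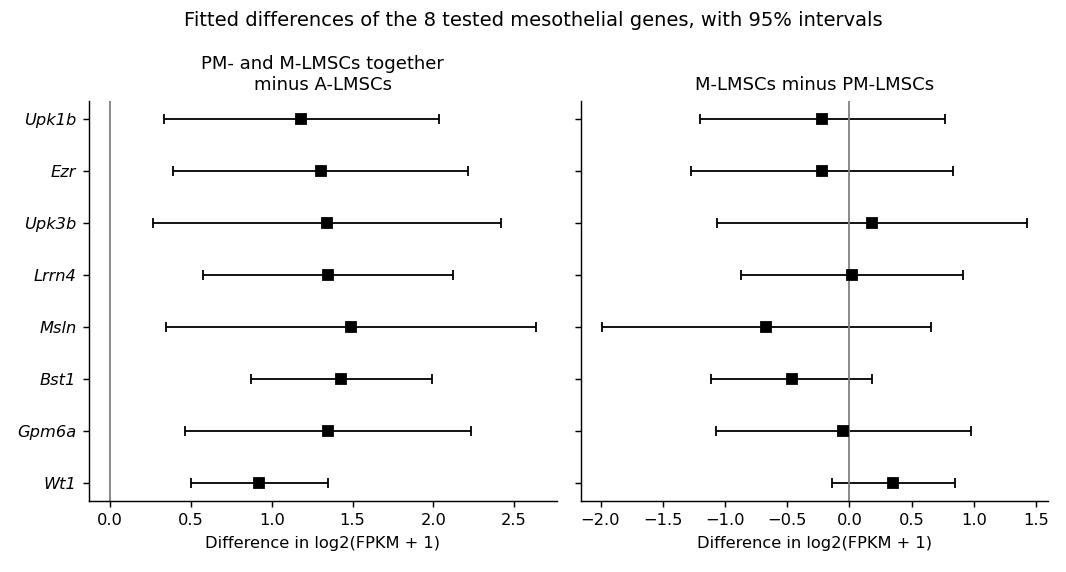
Fitted differences in log2(FPKM + 1) of the 8 tested genes, as squares with 95% confidence intervals from limma's moderated standard error (no replicate block), for both later stages together minus A-LMSCs and for M-LMSCs minus PM-LMSCs. The intervals of the first lie above 0, from 0.26 to 0.87 at their lower ends, and those of the second all include 0.

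Between the later stages, the genes did not move one way. The log2 difference of M-LMSCs from PM-LMSCs ran from -0.67 for Msln to 0.35 for Wt1, with 3 genes higher and 5 lower, and a median of -0.13. limma called 0 of the 8 higher, and 0 at an unadjusted p under 0.05, where 0.0195% and 4.48% of all genes were. It called 0 of the 8 lower, and 0 at an unadjusted p under 0.05, where 1 and 458 of all 10279 genes were. With the block it also called 0 in either direction, where 0.272% of all genes were higher and 15 of the 10279 lower. In 0 of the 8 genes were both M-LMSC libraries above both PM-LMSC libraries, which 17.8% of all genes tested showed. The 95% interval of the difference was -1.99 to 0.65 for Msln, -1.11 to 0.18 for Bst1 and -0.14 to 0.84 for Wt1, so the direction was not resolved for these genes. The 2 M-LMSC libraries lay on opposite sides of the PM-LMSC libraries in Upk1b, Upk3b, Msln, Lrrn4, Ezr, Gpm6a and Muc16.

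Levels also differed by replicate number. In the 8 tested genes, replicate 2 was above replicate 1 at every stage, a pattern that 21.2% of all genes tested had. The ratio of replicate 2 to replicate 1 was 1.04 to 1.75 in A-LMSCs, 1.01 to 1.79 in PM-LMSCs and 1.68 to 3.81 in M-LMSCs, whereas its median over all genes tested was 0.993, 0.971 and 1.01. Between libraries of the same number, the level in PM-LMSCs over that in A-LMSCs was 1.98 to 5.83 for replicate 1 (median 2.82) and 2.15 to 3.99 for replicate 2 (median 2.52). In M-LMSCs it was 1.42 to 2.75 for replicate 1 (median 2.16) and 2.70 to 5.07 for replicate 2 (median 3.53). The M-LMSC replicate 2 ratio was thus above the replicate 1 ratio in each of the 8 genes. Every one of these ratios was above 1.

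**Figure D3:**
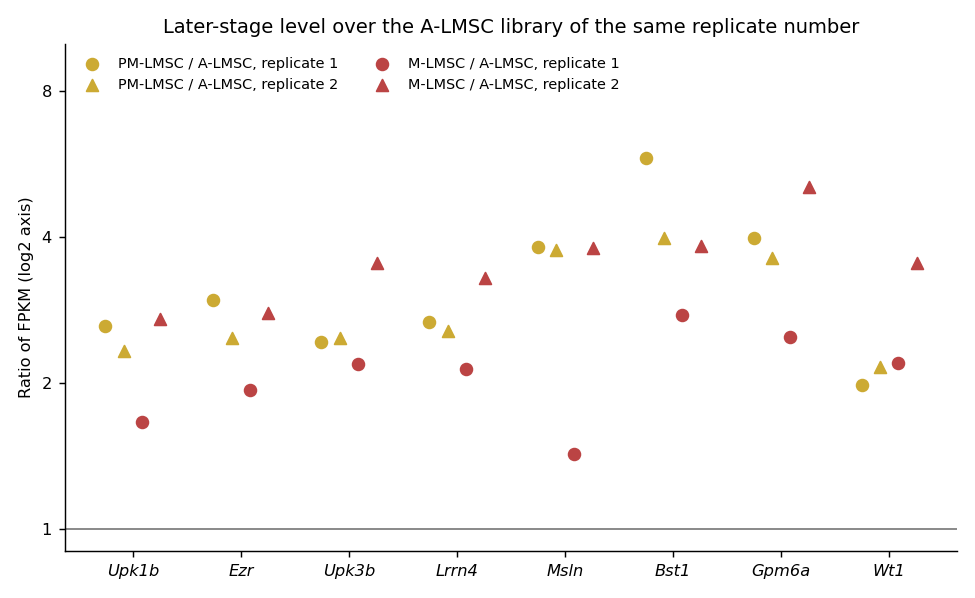
Ratio of the FPKM in a later-stage library to the A-LMSC library of the same replicate number (log2 axis) for the 8 tested genes, with circles for replicate 1, triangles for replicate 2, yellow for PM-LMSCs and red for M-LMSCs. Every point lies above the line at 1, and in each gene the red triangle is above the red circle, from 1.42 against 3.79 in Msln to 2.75 against 3.82 in Bst1.

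Each of the 4 PM- and M-LMSC libraries exceeded the A-LMSC pair in 7 of the 8 tested genes, the exception being Msln, and in 10.7% of all genes tested. The PM-LMSC libraries were above both A-LMSC libraries in 8 of the 8 (19.6% of all genes tested), and the M-LMSC libraries in 7 of the 8 (27.1%). M-LMSC replicate 1 was below both PM-LMSC libraries in 7 of the 8, against 36.1% of all genes tested, and M-LMSC replicate 2 was the highest library in 7 of the 8, against 16.6%. Muc16, which was too low to be tested, had each of these patterns. The last 2 patterns were looked for after the values had been seen.

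By mean FPKM over the libraries the order was Upk1b, Ezr, Upk3b, Lrrn4, Msln, Bst1, Gpm6a, Wt1 and Muc16. Upk1b was above Ezr in 6 of 6 libraries, by 1.90- to 2.31-fold, and Ezr above Upk3b in 6 of 6. Upk3b was above Lrrn4 in only 5 of 6 libraries, Bst1 above Gpm6a in 4 and Gpm6a above Wt1 in 3, so these neighbours did not differ beyond the spread of their ratios. The summed FPKM of the 9 genes was 135 and 209 in A-LMSCs, 376 and 526 in PM-LMSCs and 249 and 627 in M-LMSCs, or 0.0506% to 0.237% of a library's FPKM total. Within that sum the shares of the leading genes varied little between libraries. Upk1b made up 41.0% to 47.1% of it and Ezr 20.4% to 22.4%, and the shares of the tested genes that varied most were those of Bst1 (0.775% to 1.70%), Wt1 (0.733% to 1.51%) and Msln (5.08% to 9.06%).

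The other mesothelial and epicardial genes that were listed did not all follow the 9 genes. Of 20 such genes 16 were tested, and for both later stages together limma called 0 higher (9 at an unadjusted p under 0.05, where 6.43% of all genes were) and 1 lower, where 0.126% of all genes were called in either direction, with a median log2 difference of 0.37. On average 13 of the 16 were higher and 3 lower, where 5489 of all 10279 genes were higher. With the replicate block 4 were called higher (Krt8, Krt18, Bnc1 and Cdh3) and the same 1 lower (Krt19), where 1.33% of all genes were called higher and 0.72% lower. Krt8 and Krt18, which pair to form the keratin filaments of simple epithelia, rose under the block (log2 differences 1.45 and 1.18, adjusted p = 0.0120 and 0.0120 with the block, 0.356 and 0.189 without it). Krt8 measured 0.824 and 2.41 FPKM at the adenoma stage, 3.94 and 8.68 FPKM at the pre-metastatic stage and 2.91 and 10.4 FPKM at the metastatic stage, the same order of libraries as Upk1b. Krt7 and Gata4 had that order too, with log2 differences of 0.86 and 0.74 for both later stages together, and neither was called. Their adjusted p was 0.448 and 0.395 from limma, and 0.0856 and 0.117 with the block. Bnc1, a zinc-finger factor of mesothelium and basal epithelia, was at 4.9999 and 5.67, 11.3 and 13.4, and 10.5 and 14.9 FPKM at the 3 stages, without overlap between the A-LMSCs and the rest. Krt19, a simple keratin that mesothelial cells also carry, went the other way. Krt19 measured 13.8 and 17.3 FPKM at the adenoma stage, 8.09 and 9.28 FPKM at the pre-metastatic stage and 4.92 and 4.49 FPKM at the metastatic stage, and fell by 1.53 on the log2 scale in M-LMSCs (adjusted p = 0.0395 from limma, where 0.0681% of all genes were called in either direction). Calb2, which encodes calretinin, a diagnostic mesothelial marker, was too low to be tested, at 0.201 and 0.360 FPKM in A-LMSCs and at most 0.189 FPKM in the later stages. Aldh1a2, a retinaldehyde dehydrogenase of mesothelium and epicardium, was at 103 and 131, 106 and 124, and 80.7 and 115 FPKM at the 3 stages (log2 difference of both later stages -0.14, adjusted p = 0.756 from limma). Pdpn, a mucin-like membrane glycoprotein that binds ezrin, was between 96.5 and 123 FPKM in all 6 libraries.

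**Figure D4:**
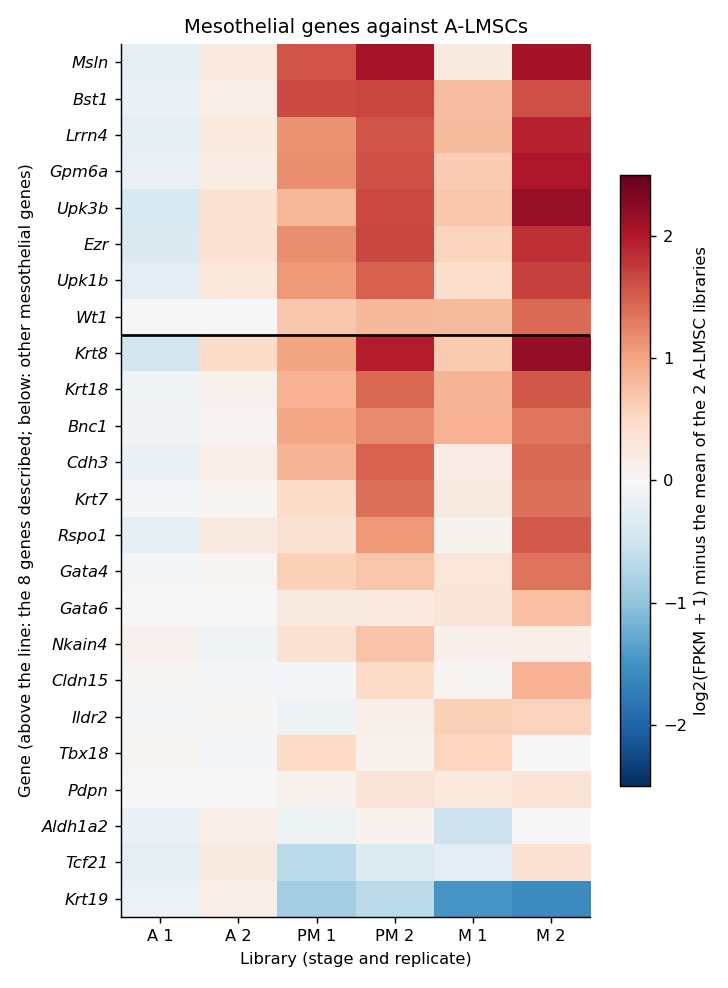
log2(FPKM + 1) minus the mean of the 2 A-LMSC libraries, as color from blue (lower) to red (higher), for the 8 tested genes above the line and the 16 tested other mesothelial genes below it, in 6 libraries. Krt7, Krt8, Krt18, Bnc1 and Gata4 rank the libraries as Upk1b does, and Cdh3 does so except that PM-LMSC replicate 2 is its highest. Aldh1a2 and Pdpn stay near white, and Krt19 is blue at both later stages.

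The close relatives of the 9 genes were read in the same way. Of 14 paralogs 4 were tested (Lrrn2, Rdx, Msn and Gpm6b), and limma called 0 of them for both later stages together, with or without the block, and 1 was higher at an unadjusted p under 0.05 (Lrrn2), where 6.43% of all genes were. In M-LMSCs limma called 1 of the 4 higher with the block, Lrrn2, where 2.28% of all genes were. The log2 difference of Lrrn2 there was 0.66 (adjusted p = 0.0401 with the block, 0.209 by limma without it). Rdx and Msn, which encode the ezrin relatives radixin and moesin, had log2 differences of 0.17 and 0.26 beside the 1.30 of Ezr. Rdx was between 13.0 and 20.5 FPKM and Msn between 182 and 254 FPKM, so that Msn was above Ezr in all 6 libraries. Upk2 and Upk3a, uroplakins of the bladder, were listed at 0 in all 6 libraries, and Upk1a reached at most 0.277 FPKM. Cd38, the paralog of Bst1, was below the filter, at 0.312 and 0.468, 0.636 and 0.925, and 1.21 and 1.32 FPKM at the 3 stages, with all 4 later values above both A-LMSC values. Of 13 ezrin partners 11 were tested and limma called 0 for both later stages together with or without the block. At an unadjusted p under 0.05 there were 2 higher, Icam1 and Stk10, against the same 6.43% of all genes. Slc9a3r1, the scaffold protein that ezrin binds in microvilli, was at 69.4 and 88.6, 101 and 156, and 78.1 and 167 FPKM at the 3 stages (log2 difference 0.60, adjusted p = 0.522 from limma, 0.0935 with the block), with M-LMSC replicate 1 inside the A-LMSC range.

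Markers of other cells were set beside the 9 genes library by library. The summed FPKM of the 9 genes was 218% and 305% of its A-LMSC mean in PM-LMSCs and 144% and 364% in M-LMSCs. That of 19 stromal genes was between 91.2% and 102%, but this sum is led by Acta2 and Tagln and says little of the other stromal genes. In PM-LMSCs 12 of the 19 were lower on average, with a median log2 difference of -0.14. There limma called 0 of them without or with the block, where 0.0292% and 0.263% of all genes were called higher. At an unadjusted p under 0.05, 1 was higher (Thy1) and 2 lower (Pdgfra and Pdgfrb), where 403 and 268 of all 10279 genes were. For M-LMSCs 14 of the 19 were higher on average, and limma called 0 higher without the block (4 at an unadjusted p under 0.05, where 7.68% of all genes were) and 2 with it, where 2.28% of all genes were. These were Dcn and Lum, matrix proteoglycans, with log2 differences of 1.13 and 1.90 (adjusted p = 0.0239 and 0.0419 with the block, 0.0875 and 0.118 by limma without it). Dcn was at 66.4 and 50.7, 57.6 and 68.6, and 117 and 141.2 FPKM at the 3 stages. The summed level of 10 haematopoietic genes, which Lyz2 leads, was 131% and 58.0% of its A-LMSC mean in PM-LMSCs and 316% and 227% in M-LMSCs. With the block limma called 5 of the 6 tested haematopoietic genes higher in M-LMSCs, where 2.28% of all genes were, and without it 0 of the 6, where 0.0389% were. At an unadjusted p under 0.05 from limma without the block, 6 of the 6 were higher, where 7.68% of all genes were. The summed level was higher in M-LMSC replicate 1, where the 9 genes were lower, than in replicate 2. The 13 epithelial genes summed to 0.925 to 1.10 FPKM in PM-LMSCs and 2.78 to 4.29 FPKM in M-LMSCs, against 0.461 and 1.68 FPKM in A-LMSCs, and 11 of them were below 1 FPKM in all libraries. The 8 endothelial genes summed to 1.74 to 1.77 FPKM in the A- and PM-LMSC libraries and to 3.01 and 2.74 FPKM in M-LMSCs. Kdr, a VEGF receptor and the 1 of them that was tested, was called higher in M-LMSCs with the block (log2 difference 0.61, adjusted p = 0.0285 with the block and 0.0998 by limma without it), while Pecam1 stayed at or below 0.0337 FPKM. The part of these cells in the values of the 9 genes was not tested.

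The 10 genes whose pattern over the 6 libraries was most like the mean profile of the 8 tested genes, among 250 other genes with an SD of at least 0.5 on the log2 scale, were Smpd3, Gas6, Ifi27l2a, Spint2, Tmem151a, Itga7, Crb2, Scx, Krt8 and Aldh1a1. Their likeness, a Pearson coefficient over 6 libraries that share depth and replicate effects, was between 0.977 and 0.993. For the 8 genes themselves it was 0.918 (Wt1) to 0.998 (Gpm6a). Each of the 8 is part of the mean profile it was compared with, so their coefficients are raised by construction and cannot be set beside those of the 10. Smpd3, a neutral sphingomyelinase, was the most alike, at 2.37 and 4.75, 10.3 and 20.1, and 6.40 and 23.4 FPKM at the 3 stages. Gas6, a secreted ligand of the TAM receptor kinases, was the most abundant, at 102 and 135, 193 and 264, and 146 and 292 FPKM at the 3 stages. These coefficients were used to choose the genes and are given as a description.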

How the data were processed

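RNA-seq values of 6 LMSC libraries (2 per stage) were analyzed. The authors deposited FPKM values, fragment counts scaled by gene length and library size, for 34745 genes; the submitters' processing notes name TopHat2 2.0.9 and mm10, and the counter and annotation are not given in the sources used here. Columns were matched to samples by the labels, and the third library of each stage in the study was not analysed here. The 9 genes, the lists and the comparisons were chosen with earlier results of these data known. The genes named were the 9, the listed genes and the 10 most alike in pattern.

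log2(FPKM + 1) of genes averaging 1 FPKM or more was fitted in R 4.3.3 with limma 3.58.1 (1 mean per stage, eBayes with a trend, two-sided, Benjamini-Hochberg over all genes). The labels name no mouse for a library, but the study's legends give mice as the replicates of the RNA-seq; p-values measure the spread between these libraries. Deviations of libraries with the same replicate number correlated at 0.238, 0.307 and 0.491 in the 3 pairs of stages. The main fit did not pair libraries, and a block pairing those of the same number was an alternative. The labels do not say what libraries of the same number share. The alternatives were a replicate block, a pseudocount of 0.1, no filter, quantile normalization, median centering, only the stages compared, each library left out, and, added after seeing the data, a correction for GC content and length. Scripts were tested on simulated data. Of the gene identifiers, 34267 were found in GENCODE M21 (GRCm38), whose exon lengths gave the depth estimates: in genes with 1 transcript, 97.0% to 97.4% of low values were within 0.1 of a whole fragment. Copies were searched for with blastn 2.17.0. Where a gene name was repeated (57 names), the first was used.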

Additional observations from a re-analysis of the deposited data

How the results depend on the processing

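Over the settings tried, the differences of the 8 tested genes from A-LMSCs kept their direction, and 45 of the 440 values for single genes passed the threshold only in the alternative. The cause of the changes below was not tested. Counts are given for PM-LMSCs, M-LMSCs and both together against A-LMSCs, and then for M- against PM-LMSCs. limma called 4, 7, 13 and 3 of all genes; with the replicate block, which pairs libraries of the same number, it called 30, 403, 211 and 43 of all genes and 3, 7, 8 and 0 of the 8. With the block and the GC and length correction it called 6, 305, 68 and 6 of all genes and 0, 4, 3 and 0 of the 8, and with that correction alone 17 for M-LMSCs. Without the filter the first 3 counts were 1, 3 and 0, and with median centering 7 were called for both stages together. Fitting only the stages compared gave 21 genes, 2 of them of the 8, for PM-LMSCs and 1 gene for M-LMSCs. Leaving out 1 library gave 1 to 28, 1 to 90, 0 to 93 and 2 to 25 genes, and 0 to 2, 0 to 6, 0 to 7 and 0 of the 8; the high ends came without an M-LMSC library. With a pseudocount of 0.1, 6 of the 10 genes most alike in pattern were shared.

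The log2 difference between M- and PM-LMSCs changed sign in 12 values when 1 library was left out or GC was corrected. Over the libraries left out it ran from -0.85 to 0.42 for Upk1b, -0.55 to 0.92 for Upk3b, -1.59 to 0.26 for Msln, -0.54 to 0.58 for Lrrn4, -0.86 to 0.42 for Ezr and -0.74 to 0.64 for Gpm6a. Without PM-LMSC replicate 1 it was -0.23 for Upk3b and -0.21 for Lrrn4, and without PM-LMSC replicate 2 it was 0.03 for Ezr and 0.17 for Gpm6a. For Gpm6a it was 0.0098 with the GC and length correction, with or without the block. Estimated fragments ran from 71 to 8908 per gene and library for the 8; each stage had 2 libraries, which limits precision.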
